A study of Mus musculus with 7 samples.

Results

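The regions described here are stretches of chromatin, lying inside genes and away from gene ends, at which both LEF1 and TCF1 were mapped in every library of naive mouse CD8 T cells. They were chosen by merging the authors' peak intervals of 6 libraries on chromosomes 1 to 19 and X wherever the intervals overlapped by at least 1 bp, and by keeping each merged region that had a peak in all 6 libraries and a midpoint inside a protein-coding gene, more than 1000 bp from either end of any protein-coding gene. This gave 4316 regions, 11.3% of the 38215 merged regions and 39.6% of the 10887 regions found in all 6 libraries. The other regions found in all 6 were 3390 gene-end regions, within 1000 bp of an end of a gene, and 3181 intergenic regions. Because the presence of a peak chose the members, that presence is a description and was not tested.

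The assay was CUT&RUN, in which an antibody guides a nuclease to cut DNA around a bound protein and the released fragments are sequenced. The 3 LEF1 libraries and the 3 TCF1 libraries came from cells of the same kind: CD8 T cells of wild-type genotype from spleen, carrying the transgenic P14 T cell receptor and sorted through a gate for naive cells that included CD8+, Ly5.1+ and CD44-. The age and sex of the mice are not in the labels, and neither is the origin of the replicates in separate animals. The spread that the p-values rest on is that between libraries, which may be technical. An input control from another sort gate (CD8+, Ly5.1-, CD44+) was not analysed here.

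LEF1, encoded by Lef1, and TCF1, encoded by Tcf7, are related proteins with an HMG box, a domain that grips the minor groove of DNA and bends it. Both recognise words built on CTTTGA, and both can recruit beta-catenin, the effector of Wnt signalling, or corepressors of the Groucho (TLE) family. In T cells they are known for setting up the T lineage in the thymus and for keeping naive and memory CD8 T cells in a state from which they can renew. Binding inside genes, far from promoters, is common for such factors and often marks enhancers.

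Sequence could be shown where a region covered a transcript start listed by RefSeq (GRCm38.p6), for which a window of 300 bases, from 250 before to 50 after the start, was at hand. The first set holds windows of the best-ranked regions among those with an HMG word, so the word was a condition of the choice. It was present in 19 of 75 intragenic windows from regions with a mean percentile of 75 or more, so most strong regions with a window lacked it there. Capitals mark CTTTGAA or CTTTGAT on either strand, and each sequence is read 5′ to 3′ on the strand of its transcript. Lrif1 encodes a partner of nuclear receptors and of heterochromatin, Taf1 a subunit of the general transcription factor TFIID, and Rnf44 a RING finger protein. The window of Gm51782, a lncRNA gene, lies in a region inside Rab3ip, which encodes a Rab exchange factor.

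Lrif1 (chr3:106721432-106721731, plus strand): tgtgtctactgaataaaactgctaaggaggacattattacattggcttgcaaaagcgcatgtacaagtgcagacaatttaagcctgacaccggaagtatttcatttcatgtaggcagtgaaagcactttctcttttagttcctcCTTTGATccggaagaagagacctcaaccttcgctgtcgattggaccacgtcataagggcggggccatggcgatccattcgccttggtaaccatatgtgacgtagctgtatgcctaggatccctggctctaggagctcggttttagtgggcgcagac
Taf1 (chrX:101532485-101532784, plus strand): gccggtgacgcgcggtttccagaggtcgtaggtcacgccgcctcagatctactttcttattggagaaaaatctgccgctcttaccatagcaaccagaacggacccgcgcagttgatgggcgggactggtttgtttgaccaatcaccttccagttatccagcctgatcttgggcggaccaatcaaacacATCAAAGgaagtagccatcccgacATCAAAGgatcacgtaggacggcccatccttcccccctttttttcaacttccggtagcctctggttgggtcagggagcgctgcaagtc
Gm51782 (chr10:116913915-116914214, plus strand): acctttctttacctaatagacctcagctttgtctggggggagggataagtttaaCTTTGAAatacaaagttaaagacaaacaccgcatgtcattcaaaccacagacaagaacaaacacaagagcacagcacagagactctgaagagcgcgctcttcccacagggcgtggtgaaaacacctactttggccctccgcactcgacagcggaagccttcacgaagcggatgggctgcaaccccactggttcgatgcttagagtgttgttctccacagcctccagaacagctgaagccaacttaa
Rnf44 (chr13:54687759-54688058, minus strand): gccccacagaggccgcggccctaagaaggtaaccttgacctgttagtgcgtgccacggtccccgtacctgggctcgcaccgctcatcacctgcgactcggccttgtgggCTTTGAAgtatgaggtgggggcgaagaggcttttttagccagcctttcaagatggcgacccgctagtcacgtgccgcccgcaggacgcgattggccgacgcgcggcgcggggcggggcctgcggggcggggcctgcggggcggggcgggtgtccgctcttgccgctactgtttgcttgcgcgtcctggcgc

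The word in the Lrif1 window began at base 145 and the median summit of the 6 libraries lay at base 211. The Taf1 window held 2 words, beginning at bases 189 and 213, and its summit lay at base 117. The Gm51782 word began at base 55 and the summit lay at base 95.5. The Rnf44 word began at base 110 and the summit lay at base 69. The mean percentiles of these regions were 98.6 for Lrif1, 98.4 for Taf1, 97.6 for Gm51782 and 97.5 for Rnf44. The percentile of a region is its place by the authors' fold enrichment among the 10887 regions of the same library, so that a high percentile means a strong peak.

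The second set holds windows of regions that ranked higher in TCF1 than in LEF1 libraries, among the regions with the largest such differences, whose values are given with that test. Rpl19 encodes a protein of the large ribosomal subunit, Dnmt1 the maintenance DNA methyltransferase, and Gnas the stimulatory G protein alpha subunit. No HMG word was found in these windows, so nothing is capitalised.

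Rpl19 (chr11:98026674-98026973, plus strand): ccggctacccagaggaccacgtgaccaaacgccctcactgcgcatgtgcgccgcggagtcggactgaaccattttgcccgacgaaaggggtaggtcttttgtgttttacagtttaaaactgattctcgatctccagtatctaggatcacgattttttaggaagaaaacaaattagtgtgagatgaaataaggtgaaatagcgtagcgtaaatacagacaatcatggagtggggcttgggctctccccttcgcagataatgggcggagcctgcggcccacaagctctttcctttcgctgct
Dnmt1 (chr9:20952930-20953229, minus strand): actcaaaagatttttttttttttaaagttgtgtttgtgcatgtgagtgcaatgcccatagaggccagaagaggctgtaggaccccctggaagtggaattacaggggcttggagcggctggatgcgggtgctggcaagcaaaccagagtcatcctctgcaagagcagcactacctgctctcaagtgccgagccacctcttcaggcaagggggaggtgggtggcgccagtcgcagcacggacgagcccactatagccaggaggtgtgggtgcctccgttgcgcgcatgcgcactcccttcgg
Gnas (chr2:174327499-174327798, plus strand): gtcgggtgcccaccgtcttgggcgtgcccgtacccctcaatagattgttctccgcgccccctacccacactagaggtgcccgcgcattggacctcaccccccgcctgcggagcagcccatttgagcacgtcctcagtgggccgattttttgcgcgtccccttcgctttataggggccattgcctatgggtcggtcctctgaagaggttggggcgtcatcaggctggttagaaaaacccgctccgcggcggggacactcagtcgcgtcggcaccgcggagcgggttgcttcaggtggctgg

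Each window was searched on both strands for the HMG words, and also for RUNX (TGTGGTT), ETS (GGAAGT) and AP-1 (TGACTCA) words and for a CTCF motif. Words of different factors may share a base, as HMG and ETS words do in the Taf1 window. With 1 window for each region, an HMG word stood in 48 of 392 windows of the intragenic regions (12.2%), in 200 of 2467 windows of gene-end regions (8.11%) and in 24 of 135 windows of intergenic regions (17.8%), against 2828 of all 32585 listed windows (8.68%). Among the intragenic windows, 19 of 75 from regions with a mean percentile of 75 or more held the word (25.3%), against 10 of 121 from regions under the 25th percentile (8.26%). Of the 47 windows in regions that ranked higher in TCF1 libraries, 2 held it (4.26%). The ETS word was in 31.6% of the intragenic, 31.4% of the gene-end and 26.7% of the intergenic windows, against 23.9% of all windows. The RUNX word was in 6.38%, 3.97% and 13.3%, against 5.29% of all, and the AP-1 word in 4.34%, 2.88% and 8.89%, against 5.23%. The CTCF motif was in 10 intragenic windows (2.55%), in 1.99% of the gene-end and 2.22% of the intergenic windows, against 1.29% of all. These shares are descriptions of windows at transcript starts, which cover a small part of the regions, and no test was made of them.

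The libraries held peaks of different number, and this bears on every value that follows. LEF1 libraries had 23695 to 37632 peaks on the chromosomes used and TCF1 libraries 11418 to 25616, the fewest in TCF1 replicate 3. The intragenic regions took 11.9% to 18.8% of the peaks in LEF1 libraries and 17.6% to 39.3% of the peaks in TCF1 libraries. Of 16961 intragenic regions found in any library, 25.4% were found in all 6. A further 3748 were found in 5 libraries, and 3731 of these were missing only from TCF1 replicate 3. Read totals are not in the peak lists, so the depth of each library is unknown here.

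The regions were narrow and placed alike in all libraries. Their median width was 693.5 bp (quartiles 547 and 931 bp), near that of gene-end regions (669 bp) and of intergenic regions (697 bp). In 3888 regions (90.1%) each library had a single peak. The summits of the 6 libraries lay within 48 bp of each other in the median region and within 100 bp in 72.5% of the regions, and were over 500 bp apart in 85 regions. Between 2 LEF1 libraries the median distance of summits was 12 to 13 bp, between 2 TCF1 libraries 14 to 17 bp, and between a LEF1 and a TCF1 library 14 to 18 bp. The mean was 14 bp within a factor and 15.7 bp between factors, a difference of -1.72 bp that reached the smallest p the design allows (exact permutation over 10 splits, two-sided, p = 0.1). Without LEF1 replicate 1, LEF1 replicate 2 or LEF1 replicate 3 in turn it was -1.08, -1 and -0.75 bp, with exact permutation p of 0.4, 0.5 and 0.6, so that it was then no longer the most extreme split. Summits of a library lay 11.8 ± 1.72 bp from the median summit of the other 5 in intragenic regions and 13.7 ± 1.63 bp in gene-end regions (SD, n = 6 libraries; lower in 6 of 6; exact sign-flip permutation test, two-sided, p = 0.03125, the smallest possible). Each of the 6 values is measured against the other libraries, so they are not independent, as the test assumes.

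The strength of the regions was ordered much alike by both factors. As a description across regions that share libraries, Spearman's rho of the fold enrichments was 0.945 to 0.955 between LEF1 libraries, 0.925 to 0.943 between TCF1 libraries and 0.885 to 0.915 between a LEF1 and a TCF1 library. The median fold enrichment of the regions was 23.1, 32.0 and 19.4 in LEF1 replicates 1, 2 and 3, and 21.6, 19.5 and 9.82 in TCF1 replicates 1, 2 and 3. These folds are the authors' values for single peaks and are compared only by rank within a library.

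The strongest region of all lay in Pdcd1lg2, which encodes PD-L2, a ligand of the inhibitory receptor PD-1, at chr19:29453760-29455026. Its fold enrichment was 230, 294 and 204 in LEF1 replicates 1, 2 and 3, and 229, 208 and 116 in TCF1 replicates 1, 2 and 3. It stood above the 99th percentile in every library, and its summits fell within 2 bp of each other. The second, in Tbcel, a tubulin cofactor-like gene, had folds of 184, 237 and 169 in the LEF1 libraries and 193, 170 and 103 in the TCF1 libraries, with the summit at the same base in all 6. The third, in the sodium-proton exchanger gene Slc9a9, lay 276411 bp from the gene start, with folds of 153, 196 and 143 in LEF1 libraries and 160, 129 and 72.6 in TCF1 libraries. The fourth lay in Ptprc, the gene of CD45, a phosphatase needed for T cell receptor signalling. Its folds were 132, 178 and 111 in LEF1 libraries and 167, 140 and 78.2 in TCF1 libraries. Fam118a, Dnaaf5, Eipr1, Ptprk, Jak1 and Rras2 completed the first 10. Ptprk encodes a receptor phosphatase, Jak1 the kinase shared by many cytokine receptors and Rras2 a small GTPase of the Ras family. None of the 10 passed the test of a difference between the factors described further on (adjusted p 0.0608 to 0.851), which does not show that they were bound equally.

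**Figure D1:**
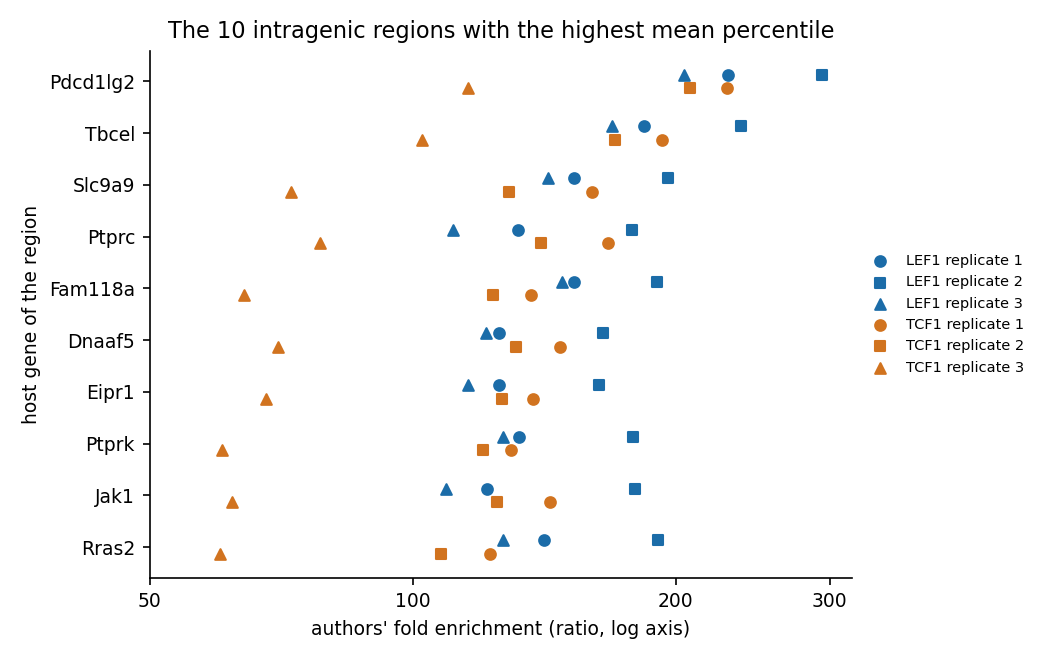
Fold enrichment given by the authors (horizontal, ratio on a log axis) of the 10 intragenic regions with the highest mean percentile, by host gene. Each point is 1 library, LEF1 in blue and TCF1 in orange; the Pdcd1lg2 region lies between 116 and 294, and TCF1 replicate 3 gives the lowest fold in each row.

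At the other end, the weakest members by the lowest −log10 q lay in Enthd1, Smim14 and Ext1, an enzyme gene of heparan sulphate synthesis. Their mean percentiles were 3.40, 3.54 and 9.14. The members nearest to the limit of 1000 bp lay in Cacul1 at 1002 bp and in Ehd1 and Tbc1d10c at 1005 bp, with mean percentiles of 9.89, 35.2 and 54.5. Just outside it were regions in Car2 and Rap1a at 1000 bp and in Tob1 at 996 bp, with mean percentiles of 41.5, 73.0 and 61.0.

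Compared with the other regions found in all 6 libraries, intragenic regions ranked above gene-end regions and just below intergenic ones. The median percentile of intragenic regions was 54.8, 54.7 and 53.9 in LEF1 replicates 1, 2 and 3, and 52.1, 51.9 and 50.7 in TCF1 replicates 1, 2 and 3. The LEF1 values all lay above the TCF1 values, with means of 54.4 ± 0.517 in LEF1 and 51.6 ± 0.760 in TCF1 libraries (SD, n = 3 each; difference 2.88, exact permutation test, two-sided, p = 0.1, the smallest that 3 against 3 allows). Gene-end regions had 36.0 ± 1.22 in LEF1 and 45.2 ± 1.71 in TCF1 libraries, in the opposite order. The percentiles rank the intragenic, gene-end and intergenic regions of a library together. Lower ranks of gene-end regions in LEF1 libraries therefore leave higher ranks to the other classes. The difference of 2.88 is thus not a result separate from that of gene-end regions, and these ranks cannot tell which class shifted. Over the 6 libraries intragenic regions ranked 12.4 ± 6.87 percentile points above gene-end regions (SD, n = 6; higher in 6 of 6; exact sign-flip permutation test, two-sided, p = 0.03125) and differed by -1.83 ± 0.657 points from intergenic regions (lower in 6 of 6; same test, p = 0.03125). The gap to gene-end regions was 18.4 ± 1.73 points in LEF1 and 6.37 ± 2.46 in TCF1 libraries (difference 12.04, exact permutation test, p = 0.1). The gap pooled over libraries rested on the list of TCF1 replicate 3, which sets which regions count as found in all: without that library the gap was 1.51 points (p = 0.5), and with all lists shortened to the same number of peaks it was 5.39 points (p = 0.1875, exact). At or above the 90th percentile in every library stood 331 intragenic regions (7.67%), 149 gene-end regions (4.39%) and 282 intergenic regions (8.87%).

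**Figure D2:**
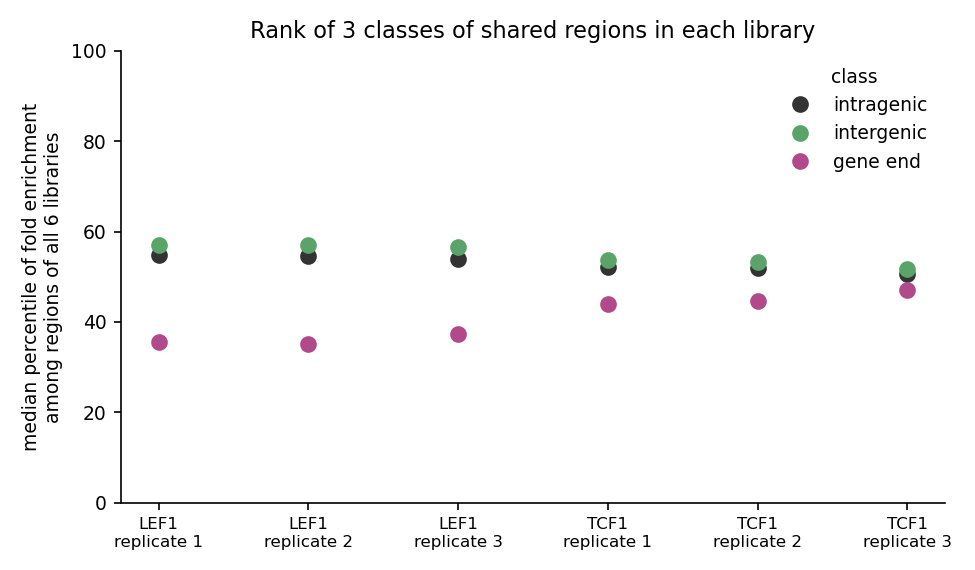
Median percentile of fold enrichment (vertical, 0 to 100) in each library for the intragenic, intergenic and gene-end regions found in all 6 libraries. Intragenic medians lie between 53.9 and 54.8 in LEF1 libraries and between 50.7 and 52.1 in TCF1 libraries, and gene-end medians lie below them in every library.

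A difference between the factors was tested in each region with limma on normal scores of the ranks, where 1 unit is 1 SD of all regions of a library and a positive value means a higher rank in LEF1 libraries. Past an adjusted p of 0.05 (Benjamini-Hochberg over 10887 regions) 166 intragenic regions ranked higher in LEF1 (3.85%, against a background of 3.12% of all regions tested) and 111 ranked higher in TCF1 (2.57%, against 5.92%). The LEF1 share was near its background and the TCF1 share below it. In gene-end regions 54 ranked higher in LEF1 (1.59%) and 488 in TCF1 (14.4%), and in intergenic regions 120 (3.77%) and 45 (1.41%). The median difference was 0.09 in intragenic, -0.17 in gene-end and 0.10 in intergenic regions. The classes share the ranking of each library, so these medians are not independent of each other. Groups that did not overlap were common, with or without a call. Of the 4316 intragenic regions, 884 had all LEF1 libraries higher and 463 all TCF1 libraries higher, against 1891 and 1905 of all 10887 regions. The counts fell with fewer libraries, to between 33 and 103 for LEF1 and between 33 and 60 for TCF1 when 1 library was left out, and to 98 and 50 with lists of equal length. Without LEF1 replicate 1 the balance turned, with 33 higher in LEF1 and 36 in TCF1.

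The regions that ranked higher in TCF1 libraries were led by Rpl19 at chr11:98026596-98027152. Its percentiles were 1.11, 0.179 and 0.344 in LEF1 replicates 1, 2 and 3, and 63.3, 66.6 and 67.3 in TCF1 replicates 1, 2 and 3. The groups lay far apart, with one of the weakest shared peaks in each LEF1 library and a peak above the median in each TCF1 library (difference -3.04 ± 0.166 SE, limma, adjusted p = 0.000813). The Dnmt1 region had percentiles of 0.119, 0.115 and 2.03 in LEF1 libraries and 25.7, 36.7 and 40.01 in TCF1 libraries (-2.30 ± 0.285, adjusted p = 0.00833). The region in Ccdc85c had 13.3, 8.81 and 9.98 in LEF1 libraries and 76.9, 73.8 and 77.8 in TCF1 libraries (-1.96 ± 0.104, adjusted p = 0.000813). In both, every TCF1 library lay above every LEF1 library. The next were Kmt2d, a histone H3 lysine 4 methyltransferase gene, Gnas, the zinc finger factor gene Sp3, the splicing kinase gene Srpk2 and Plekha2. Their differences were -1.66 to -1.41 (limma, adjusted p of 0.00133 to 0.00778). Their mean percentiles ran from 0.277 in Kmt2d to 7.83 in Srpk2 in LEF1 libraries. In TCF1 libraries they ran from 10.3 in Kmt2d to 53.6 in Srpk2, so Kmt2d was weak in both factors. Of these 8 regions, 6 had a median summit within 500 bp of a listed transcript start inside the gene; the Kmt2d summit was 958 bp from one, and Plekha2 has no start in the window table.

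The regions that ranked higher in LEF1 libraries were led by Pitpnb and Immp2l, both weak in every TCF1 library. The region in Pitpnb, a phosphatidylinositol transfer protein gene, had percentiles of 24.0, 47.9 and 54.3 in LEF1 libraries and 0.340, 1.04 and 3.84 in TCF1 libraries (2.05 ± 0.296, limma, adjusted p = 0.0129). In Immp2l, a mitochondrial peptidase gene, the values were 46.1, 48.1 and 62.2 in LEF1 libraries and 6.66, 3.83 and 3.84 in TCF1 libraries (1.74 ± 0.147, adjusted p = 0.00228). No TCF1 library reached the lowest LEF1 library in either. Shisa5, Daxx (a histone chaperone gene), Man1a, the interval shared by Nf1 and the Evi2 genes nested in it, Prorp and Cstl1 followed, with differences of 1.52 to 1.33 and adjusted p of 0.0103 to 0.0425. The summits of these 8 regions were 1233 bp or farther from any listed start. Not every gene of the Nf1 interval has one in the table. The midpoint of the Immp2l region lay 1188 bp from an end of another protein-coding gene. The nearest listed start to its summit, of Gm40412, was 120150 bp away.

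The regions of both directions differed in how often they lay at a transcript start. This comparison was chosen after the values of single regions had been seen, and the counts carry no test. Of 3439 regions whose host genes all have starts in the RefSeq window table, 359 (10.4%) had a median summit within 500 bp of a listed start. In 319 it was a listed start of the host gene itself, and in 40 a lncRNA start. Main and alternative starts of a host gene were not told apart, and a gene body can extend beyond its main start. Of these 359, 3 ranked higher in LEF1 (0.836%) and 50 in TCF1 (13.9%), and the difference was negative in 63.2%. Between 500 and 2000 bp, 13 of 317 ranked higher in LEF1 (4.10%) and 15 in TCF1 (4.73%). From 2 to 10 kb the counts were 26 of 840 in LEF1 and 12 in TCF1, from 10 to 50 kb 56 of 1394 and 12, and beyond 50 kb 20 of 529 and 5. Of all TCF1-higher regions with listed hosts, 50 of 94 (53.2%) lay at a start, against 3 of 118 LEF1-higher regions (2.54%). The 877 regions whose hosts have no listed start were left out. Starts of neighbouring genes that are absent from the table could not be counted.

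**Figure D3:**
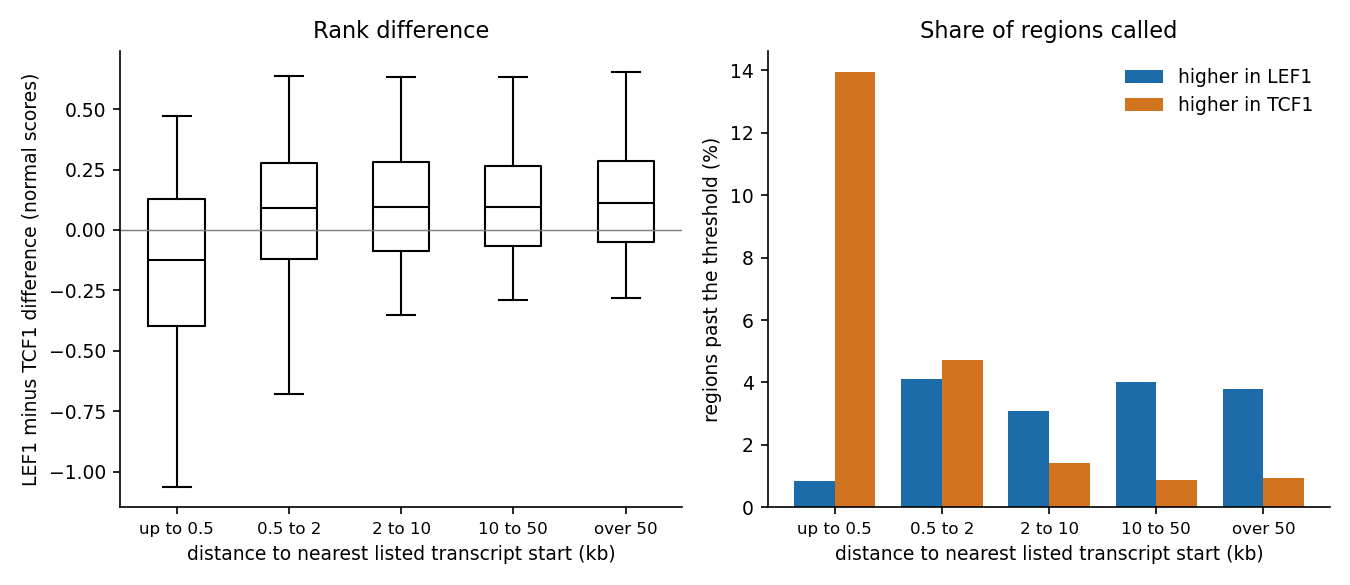
Left, difference between LEF1 and TCF1 in normal scores (vertical; boxes span the quartiles with the median, whiskers the 5th to 95th percentile of regions) by distance of the summit from the nearest listed transcript start in kb. Right, share of regions past the adjusted p threshold in each direction; within 0.5 kb of a start 0.836% ranked higher in LEF1 and 13.9% in TCF1.

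The tests of regions at a start were run on that same split, chosen after values of single regions had been seen. Their p-values are descriptions and carry no support for it. At a start, the median percentile of the regions was 35.2 ± 1.27 in LEF1 and 41.9 ± 0.894 in TCF1 libraries (difference -6.62). Away from starts it was 55.7 ± 0.624 in LEF1 and 52.5 ± 0.953 in TCF1 libraries (difference 3.22; SD, n = 3 each; p = 0.1 for each difference in an exact permutation test, two-sided). Both sets are ranked together with gene-end and intergenic regions, so these differences are not independent of the shift of gene-end regions. Regions at a start differed from those away from starts by -15.6 ± 5.61 points over the 6 libraries (lower in 6 of 6; exact sign-flip permutation test, two-sided, p = 0.03125), and by -20.5 ± 1.88 points in LEF1 and -10.7 ± 1.59 in TCF1 libraries (difference -9.83, exact permutation test, p = 0.1). The pooled gap was -3.23 points without TCF1 replicate 3 (p = 0.25) and -5.08 with lists of equal length (p = 0.1562, both exact), whereas the difference between the factors stayed between -11.8 and -9.18 under every alternative run on it. Gene-end regions, which lie at annotated starts and far ends, had 488 of 3390 past the threshold towards TCF1, as stated for the test across regions. The width covered by peaks at a start was near that away from starts (521 ± 106 and 539 ± 110 bp, n = 6; exact sign-flip permutation test, p = 0.2812).

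Along their genes the regions leaned towards the start. Where the strand of the host gene was known from the window table (3396 regions), 60.9% lay nearer the start than the far end, with 471 in the first 10% of the gene (13.9% of them) and 187 in the last 10% (5.51%). Intragenic regions found in 1 to 5 libraries had 58.5% to 66.3% nearer the start, so this lean is not particular to those found in all 6. The median distance to the nearest gene end was 15970 bp (quartiles 5370 and 38850 bp). Exons and introns could not be told apart with the annotation used.

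The regions were gathered in a limited set of genes. Of 19190 protein-coding genes longer than 2000 bp, 2389 held at least 1 region (12.4%), 149 held 5 or more and 24 held 10 or more. The 149 genes together held 24.2% of all members. Genes with a region were longer than others, with a median of 58.6 kb against 21.3 kb over all genes. Per length, genes of 2 to 10 kb, 10 to 50 kb and 50 to 200 kb had 0.542, 0.577 and 0.571 regions per 100 kb, and longer genes 0.199. These rates divide by the whole gene length. Midpoints within 1000 bp of a gene end cannot count, and this takes a larger share of short genes. Neighbouring regions of 1 gene lay a median of 8.61 kb apart.

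Foxp1, a forkhead factor gene known for T cell quiescence, held the most, with 22 regions over 597 kb. Bach2, a repressor gene that restrains effector programmes, held 15 over 348 kb. Ubac2, whose body contains the genes of a pair of G protein-coupled receptors of lymphocytes, Gpr18 and Gpr183, held 14, as did Prkch, a protein kinase C gene. Sgms1, which makes sphingomyelin, held 13. Itpkb, an inositol trisphosphate kinase gene, held 12 within 94.4 kb, or 12.7 per 100 kb. St8sia1, a ganglioside synthase gene, Ripor2 and Thada also held 12 each. Among the densest genes over 10 kb with at least 3 regions were Gpr132 with 28.5 per 100 kb, Dusp5 with 23.7 and Slfn5 with 22.2. Gpr132 encodes a receptor that responds to lipids, and Dusp5 a phosphatase of ERK. The strongest of the 5 Gpr132 regions had a mean percentile of 98.2.

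**Figure D4:**
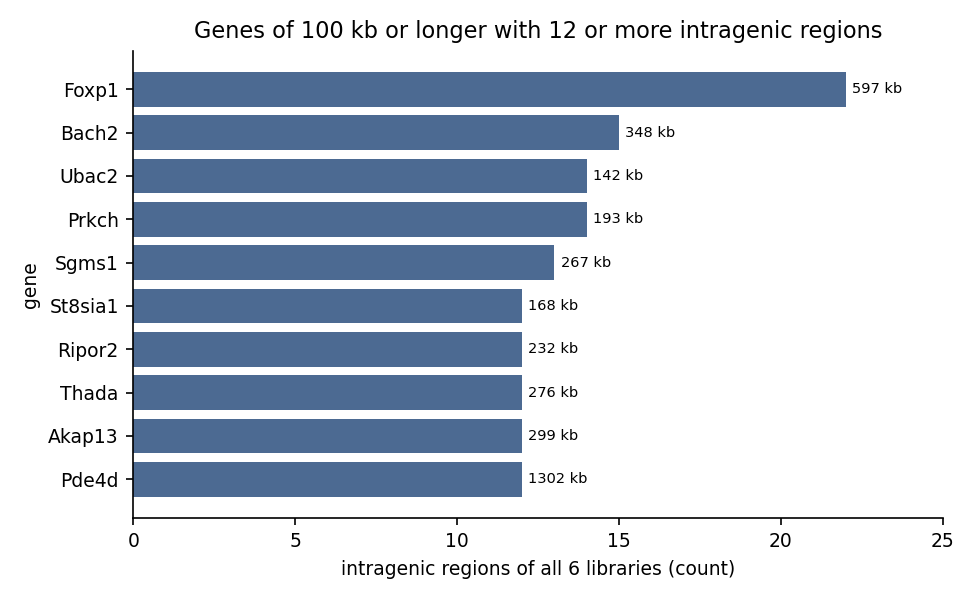
Number of intragenic regions found in all 6 libraries (horizontal, count) for genes of 100 kb or longer with 12 or more, with each gene's length in kb beside its bar. Foxp1 has 22 and Bach2 15, and Ubac2 has 14 in the shortest gene shown.

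The genes of both factors themselves carried shared regions. Lef1 held 10 over 114 kb, 2535 to 98204 bp from its start, with mean percentiles of 47.3 to 94.96. The strongest, at chr3:131207615-131209387, had percentiles of 94.7, 94.6 and 93.6 in LEF1 libraries and 96.3, 95.2 and 95.2 in TCF1 libraries, all above the LEF1 values. None of the 10 passed the test between factors, with differences of -0.13 to 0.27. Tcf7 held 5 regions over 36.9 kb, 8053 to 17507 bp from its start, with mean percentiles of 16.6 to 66.9. One of them, at chr11:52271078-52272282, had percentiles of 27.3, 20.1 and 28.6 in LEF1 libraries and 7.44, 12.03 and 4.29 in TCF1 libraries. The groups did not overlap (0.78 ± 0.161, limma, adjusted p = 0.0352), and this was the weakest of the Tcf7 regions.

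**Figure D5:**
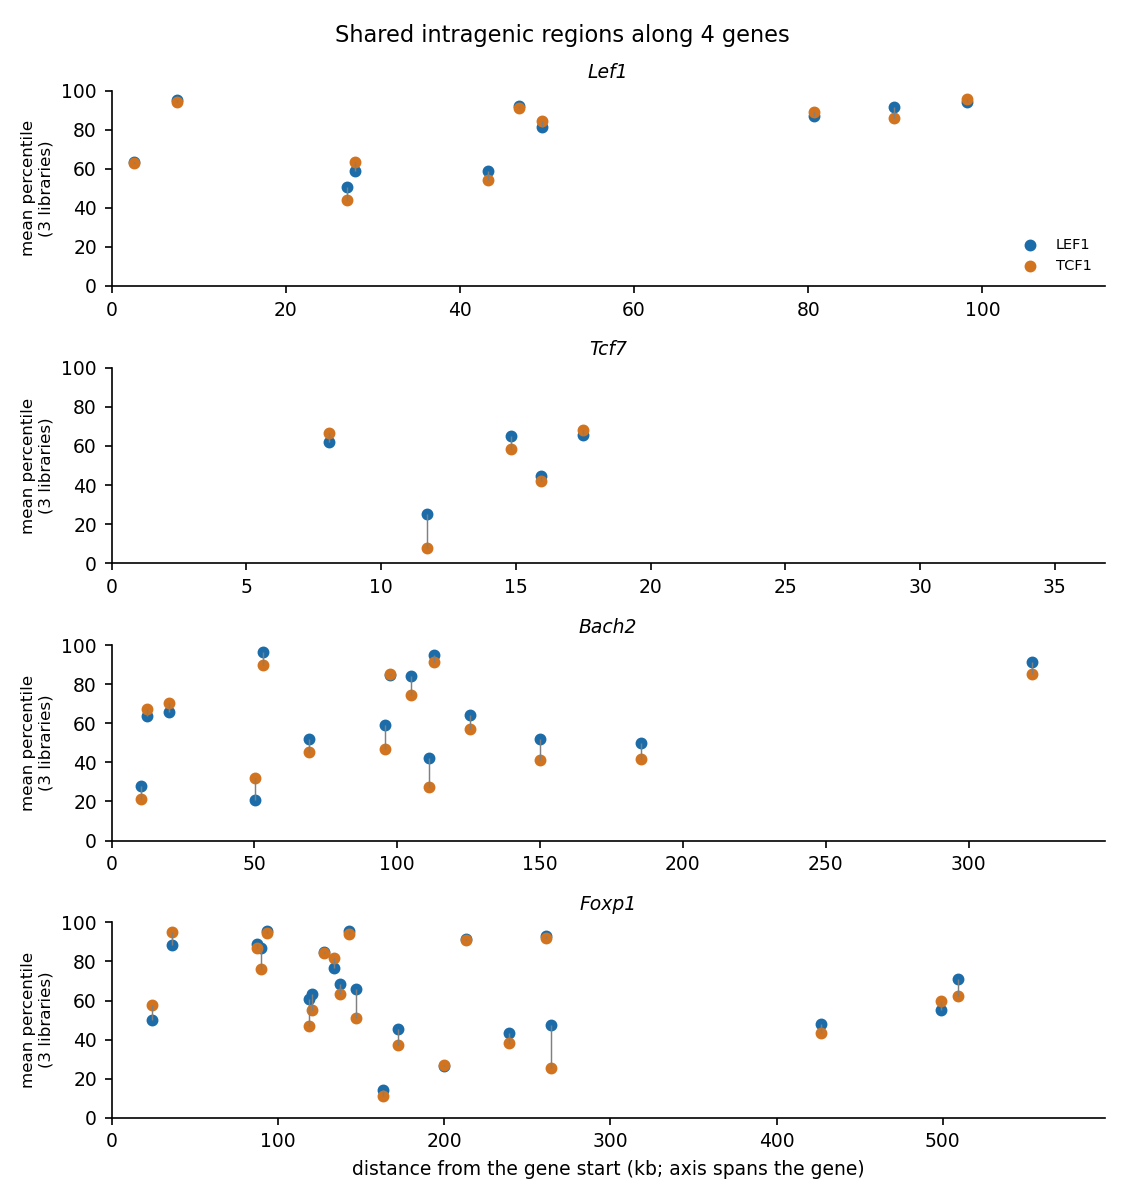
Mean percentile over 3 LEF1 libraries (blue) and 3 TCF1 libraries (orange) of each shared intragenic region of Lef1, Tcf7, Bach2 and Foxp1, against the distance from the gene start in kb, with each axis as long as its gene. The points of both factors lie close in most regions; the Tcf7 region 11703 bp from the start, whose points are 25.3 for LEF1 and 7.92 for TCF1, is among the few that passed the test.

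In Bach2, the region at chr4:32290803-32292035 ranked higher in LEF1, with percentiles of 97.0, 96.4 and 96.5 in LEF1 libraries and 92.2, 91.4 and 85.5 in TCF1 libraries (0.55 ± 0.123, limma, adjusted p = 0.0420). In Foxp1, the region at chr6:99486047-99486683 ranked higher in TCF1, with 87.4, 88.9 and 88.3 in LEF1 libraries and 95.02, 95.6 and 94.1 in TCF1 libraries (-0.45 ± 0.0909, adjusted p = 0.0335). Neither pair of groups overlapped. The other Bach2 and Foxp1 regions did not pass.

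Gene groups of T cell biology and of other tissues were compared by count. The groups differ in gene length and were not tested, and 12.4% of all protein-coding genes over 2000 bp held a region. Their lists were written with earlier results of these data known, so a high share in a list is partly a product of that choice. The values that follow are counts of genes with at least 1 region and regions per 100 kb of gene, against 0.420 per 100 kb over all such genes. Of 24 genes known from naive or stem-like cells, 18 had one (4.77 per 100 kb), among them Foxp1, Bach2, Lef1, Satb1 with 7 and Bcl2, the survival factor gene, with 7. Il7r, the receptor of the survival cytokine interleukin 7, had 1. Its percentiles were 69.5, 69.3 and 71.8 in LEF1 libraries and 60.2, 59.0 and 71.2 in TCF1 libraries, and the groups overlapped. The Il7r region was 3120 bp wide and reached past the gene start, with its midpoint 1307 bp inside. Its median summit lay 663 bp from a listed Il7r start, and its summits spread over 1506 bp. Klf2, S1pr1, Myb and Cd27 of the same group had none. Klf2, S1pr1 and Cd27 are 2.59, 4.62 and 4.52 kb long, so the limit of 1000 bp at each end left them little room. Id3, at 1.57 kb, could not hold a region and is not among the 24.

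Of 24 genes of the T cell receptor and its signalling, 18 had a region (3.85 per 100 kb), among them Prkcq (protein kinase C theta) with 11, Cd247 (the zeta chain) with 6 and Ptprc with 5. Cd8a had 1, with percentiles of 80.6, 78.6 and 81.7 in LEF1 libraries and 75.1, 69.2 and 68.8 in TCF1 libraries, groups that did not overlap but did not pass the test (adjusted p = 0.113). The Cd3 chain genes, which are short, had none. Of 24 T lineage transcription factor genes, 17 had a region (2.49 per 100 kb): Fli1 10, Ets1 9, and Runx1, Ikzf1, Ikzf3 and Stat5b 7 each. The best Ikzf1 region had a mean percentile of 95.9, and the best Bcl11b region, in the gene that commits cells to the T lineage, 94.5. None of the regions of Ets1, Satb1, Ikzf1, Runx1 and Bcl11b passed the test between factors.

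Of 25 Wnt pathway genes, 10 had a region (1.58 per 100 kb). The strongest lay in Rnf43, Znrf3 and Axin2. Axin2, a scaffold of the beta-catenin destruction complex and a textbook Wnt target, had 1 region at chr11:108920018-108923301. Its percentiles were 99.2, 99.1 and 99.6 in LEF1 libraries and 99.5, 99.6 and 99.7 in TCF1 libraries, close to the top in all and overlapping. Znrf3 and Rnf43, whose ubiquitin ligases remove Wnt receptors from the cell surface, had 6 and 2 regions, the best at mean percentiles of 99.5 each. Ctnnb1 (beta-catenin), Apc, Lrp6 and Tcf7l1 had none, and neither had Nkd1, Nkd2 and Notum, which encode other inhibitors of the pathway.

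Of 23 cytokine receptor genes, 13 had a region (4.62 per 100 kb), with Tgfbr2 at 6, Il18r1 and Tnfrsf1b at 5 and the best region in Il2ra, the high-affinity interleukin 2 receptor chain, at a mean percentile of 98.9. Of 20 homing and adhesion genes, 12 had one, among them Selplg and Cd44 with 3 each. Of 28 chromatin regulator genes, 17 had one, with Hdac4 at 11, Chd7 at 9 and Tet3, Arid1b and Chd2 at 4 each. Of 25 genes of signalling feedback, 10 had one, with Cblb, a ubiquitin ligase that restrains T cell receptor signalling, at 8 and a best mean percentile of 99.4. Of 18 inhibitory receptor and exhaustion genes, 9 had one, with Pdcd1lg2 at 4, Tox at 3 and Nr4a1 at 2. The Tox region at chr4:6901361-6902818 ranked higher in LEF1, with percentiles of 53.0, 57.8 and 58.4 in LEF1 libraries and 36.9, 30.1 and 39.2 in TCF1 libraries, without overlap (0.54 ± 0.107, limma, adjusted p = 0.0321).

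Of 22 effector genes, 6 had a region (1.88 per 100 kb), with Prdm1 at 3, while Gzmb, Ifng, Fasl and Tbx21 had none. Gzmb, Ifng and Fasl are short, at 3.5, 4.85 and 7.8 kb, so the limit of 1000 bp at each end left less room. Of 20 housekeeping genes, 3 had one (2.87 per 100 kb): Ywhaz with 4, Actb with 3 and Snrpd3 with 1. Among 24 long genes of the nervous system, which span 36050 kb, Magi2 had 3 and Galntl6 had 1 (0.0111 per 100 kb over all 24). Of genes of other cells of the spleen, 0 of 14 B cell genes, 0 of 9 NK cell genes and 2 of 11 myeloid genes (Itgam and Fcgr3; 0.613 per 100 kb) had a region. Without TCF1 replicate 3, which leaves more regions, 4 B cell genes, 1 NK cell gene, 5 housekeeping genes and 4 of the long genes of the nervous system had one. Of 6 markers for the labelled cell type, 3 had regions (Cd8a, Cd8b1 and Cd247), and the Cd3 chain genes had none. Of 2 markers of helper T cells, 1 had a region: Cd4, a gene that CD8 T cells do not express (best mean percentile 93.0). A peak shows binding and not expression, so these counts do not check the purity of the cells.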

How the data were processed

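CUT&RUN with antibodies to LEF1 (3 libraries) and TCF1 (3 libraries) was analysed from the peak lists deposited by the authors. Per the submitters' processing notes, the build was GRCm38.p6 and the tools named include MACS3 3.0.3, Bowtie2 2.4.4 and Picard, besides FastQC 0.12.1, Trim Galore 0.6.6 and deepTools 3.5.1. The sources used here give neither the settings nor the control of the peak caller. The authors' lists are per library and give each peak a fold enrichment (a ratio), a p-value and a q-value as −log10, a score and a summit. How the authors treated duplicates and multiply mapping reads decides which peaks exist, and repeated genes can share reads.

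An interval with several summits counted as 1 peak. A region's fold enrichment in a library is that of its strongest peak there. Folds were turned into percentiles within each library over the 10887 regions found in all 6, and their normal scores were tested with limma 3.58.1 in R 4.3.3 (design of LEF1 and TCF1, no covariate, Benjamini-Hochberg adjustment). Summaries per library were tested with exact permutation tests written in Python 3.11.15 with numpy 2.4.6, pandas 2.3.3 and scipy 1.17.1. The code was tested on simulated data. Gene bodies, window sequences and strands came from RefSeq tables of GRCm38.p6, of which 17274 of 21631 protein-coding genes had listed starts. Exon and intron classes and motif counts over whole regions, which were planned, were not run because no genome sequence was used. Motifs were counted in start windows instead. Coordinates are 1-based.

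The members and the gene lists were chosen with earlier results of these data known. Always named were 14 genes of both factors and of T cell biology. The rule also named the 10 regions with the best mean percentile, the 10 genes with the most regions, the 5 densest genes over 10 kb, the 4 genes of each list with the most regions, up to 8 called regions in each direction, the 3 weakest regions and 3 on each side of the 1000 bp limit. Some genes it names are not reported here, and genes named as examples of lists, or as having no region, were added after their values were seen. Alternatives were equal list lengths, a stricter q, ranks of q, quantile normalisation, other overlap and distance limits, a replicate block and leaving out each library. The groups and replicate numbers come from the sample titles. Counts of reads are not in the lists, so depth is unknown.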

Additional observations from a re-analysis of the deposited data

How the results depend on the processing

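No single result changed sign under any alternative run, but the balance of calls turned without LEF1 replicate 1, to 33 higher in LEF1 and 36 in TCF1. With lists of equal length, the gap of intragenic to gene-end regions was 5.39 points, 98 intragenic regions ranked higher in LEF1 and 50 in TCF1, and the gap of regions at a start was -5.08 points. The replicate numbers of the titles are shared by both factors. Deviations of libraries with the same title number correlated at 0.0322, 0.0623 and 0.0663. Library names in the descriptions carry other replicate numbers, and pairing under those was not examined. With the replicate block, 71 regions ranked higher in LEF1 and 51 in TCF1, and 110 of these 122 were among the 277 called without it. Ranks of −log10 q gave 353 calls, 258 of them shared with those 277, and quantile normalisation gave 328, 266 of them shared. Leaving out 1 library gave 4319 to 8047 intragenic regions, the highest without TCF1 replicate 3, and 33 to 103 LEF1-higher and 33 to 60 TCF1-higher calls. It gave gaps to gene-end regions of 1.51 to 13.4 points, summit offsets of -2.30 to -1 bp and start gaps of -16.6 to -3.23 points. With 5 libraries an exact sign-flip permutation test cannot go below p = 0.0625. The share of TCF1-higher regions at a start was 42.9% to 61.1% over all alternatives, and the genes of all lists with a region numbered 123 to 173. Under ranks of −log10 q, 99 of 131 percentiles of named regions moved by less than the spread between libraries and 32 by more. These percentiles were not compared under the other settings. With a library left out, 86 of 90 list counts stayed within 1.5 times. The other 4, all without TCF1 replicate 3, were housekeeping (5), long nervous system (4), B cell (4) and NK cell (1) genes. Short lists, above all that of TCF1 replicate 3, limit which regions count as shared, and depth is unknown.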

Other observations

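Of the intragenic regions, 4 overlapped an annotated miRNA gene and 7 an annotated snRNA gene, some of them in part, and all of these regions but 2 had mean percentiles under 50. The miRNA genes were Mir5620 in Clcn4, Mir7687 in Gse1, Mir1931 in Cdk17 and Mir1904 in Pde4d, with mean percentiles of 9.81, 15.6, 10.2 and 12.6. The Mir1904 region had a mean percentile of 6.10 in LEF1 and 19.0 in TCF1 libraries (difference -0.66 in normal scores, limma, adjusted p = 0.0459), and the other 3 did not pass the test. Of the snRNA genes, 6 lay in the body of Tex14, a gene known from germ cells: Rnu1a1, Gm22068, Rnu3b1, Rnu3b3, Rnu3b4 and Rnu3b2. All but Gm22068 are copies of U1 or U3 genes by name. Reads may be shared between near-identical copies, so the values are uncertain. Their mean percentiles were 9.02 to 64.7.

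The share of shared regions that were intragenic varied by chromosome. It was 25.3% on chromosome X (44 of 174 regions), and 32.6% to 45.3% on the other chromosomes used. The cause was not tested.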
